A study of Homo sapiens with 24 samples.

Results

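The 10 genes described here, FOS, FOSB, FOSL1, FOSL2, JUN, JUNB, JUND, ATF3, MAFF and BATF3, encode transcription factors of the AP-1 family and close relatives, and were followed over a pair of ovarian cancer cell lines, sensitive or resistant to platinum, that were exposed to a nucleoside prodrug. They were chosen by name, not by their measured values. All 10 were found by their Ensembl identifiers among the 63299 genes of the count table, and all 10 passed the filter on low counts that left 20240 genes for testing. JUN and BATF3 passed it through their A2780cis libraries and were not tested when A2780 was fitted alone. Whole transcriptome sequencing had been performed on A2780, an established human ovarian cancer cell line that is platinum-sensitive, and on A2780cis, its isogenic platinum-resistant counterpart, which was given cisplatin in the medium at intervals to keep its resistance. For cells of either line the medium was exchanged for fresh standard medium (untreated) or for medium with 1 µM 5-FdU-ECyd (treated). This molecule covalently joins the antimetabolites 5-FdU and ECyd. RNA was taken 6 h or 12 h later. The 8 combinations of line, treatment and time hold 3 libraries each, 24 in all. Each line is represented by 1 cell line, and the labels number the replicates without saying whether they came from separate cultures. The paper's captions call them biological triplicates, and its methods do not say whether the cultures were grown separately. The p-values therefore measure the spread between these libraries, which may be technical.

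AP-1 factors bind DNA as pairs through a leucine zipper. FOS proteins (FOS, FOSB, FOSL1, FOSL2) need a JUN partner (JUN, JUNB, JUND), ATF3 pairs with JUN proteins or with itself, and MAFF, a small MAF protein, lacks a transactivation domain. FOS, FOSB, JUNB and ATF3 are classical immediate early genes, whose short-lived mRNAs are induced within a short time by growth factors, kinase signalling, DNA damage and other stress, whereas JUND is known for steady expression. In cancer cells AP-1 is known for its part in proliferation, invasion and stress-driven cell death.

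Promoter windows from 250 bases before to 50 bases after the RefSeq start (GRCh38.p14) were found for 8 of the 10 genes, all but FOSL1 and BATF3. The core of the cAMP response element, TGACGT, which CREB and ATF proteins are known to bind, occurred on either strand in 5 of these 8 windows (FOS, FOSB, FOSL2, JUND and MAFF) and in 9.82% of 15251 windows of protein-coding genes. These stretches are shown because they hold the cores, which are in capitals, extended to the palindrome TGACGTCA in JUND and MAFF, together with TATAAA where it follows:
FOS: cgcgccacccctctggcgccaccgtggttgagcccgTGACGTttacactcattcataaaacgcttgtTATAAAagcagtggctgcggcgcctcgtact
FOSB: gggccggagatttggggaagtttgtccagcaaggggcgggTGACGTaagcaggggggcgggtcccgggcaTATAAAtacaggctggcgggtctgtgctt
FOSL2: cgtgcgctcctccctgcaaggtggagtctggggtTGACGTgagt
JUND: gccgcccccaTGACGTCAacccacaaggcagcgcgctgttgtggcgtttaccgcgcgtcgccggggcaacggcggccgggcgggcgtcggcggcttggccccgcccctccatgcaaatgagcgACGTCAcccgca
MAFF: ggccgggtcggTGACGTCAccgcatgactg

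In the reference genome these stretches lie at chr14:75278728-75278825 (FOS), chr19:45467896-45467994 (FOSB), chr2:28392758-28392801 (FOSL2), chr19:18281698-18281832 on the minus strand (JUND) and chr22:38201929-38201958 (MAFF), the others being on the plus strand. They are upstream of the RefSeq start, although the MAFF stretch also overlaps an exon that GENCODE annotates for other transcripts of the gene. Counted from the start as position 1, the core began at -64 in FOS, -60 in FOSB, -66 in FOSL2 and -54 in MAFF, and JUND held a core at -200 and another, on the opposite strand, from -87 to -82. TATAAA was present in FOS, FOSB and JUNB, 3 of the 8 windows, against 9.56% of all windows. The palindrome TGACGTCA, which contains the core, was present in 2.64% of all windows. The AP-1 site TGANTCA was found in 1 of the 8 windows, that of FOSL2, and in 5.71% of all windows, and the CArG box in 0 of 8 and in 1.23%. A single window was read per gene, so other starts of a gene, such as any further along ATF3, were not covered. Elements more than 250 bases before the start were not covered either, so the lack of a CArG box holds for these windows only. Matches describe the letters in these windows, not occupied sites.

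Library totals ranged from 11077368 to 21901406 counts. Of the 24 libraries, 23 were most similar to a library of their own group, the exception being A2780 untreated 6 h replicate 3, and leaving that library out kept the number of differentially expressed AP-1 genes in A2780 at 6 h at 7. Of the ovarian markers, PAX8, WT1, MUC16 and SOX17 had at most 2 counts in any library and ESR1 at most 5. Of the epithelial markers, CDH1 had at most 2 counts and KRT19 at most 6, EPCAM was between 0.112 and 1.28 CPM in untreated libraries, and the keratins KRT8 and KRT18 were at 3.82 to 6.80 and 20.6 to 26.6 CPM in untreated A2780cis against 0.574 to 1.44 and 0.718 to 2.11 CPM in untreated A2780. Of the mesenchymal markers, vimentin (VIM) was between 1950 and 2770 CPM in untreated libraries. CDH2 was at 41.7 to 55.6 CPM in untreated A2780 and 3.85 to 7.42 CPM in untreated A2780cis, and ZEB1 at 57.1 to 113 and 49 to 83.9 CPM. Leukocyte and endothelial markers had at most 3 counts. Of the fibroblast markers, PDGFRA was at 154 to 191 CPM in untreated A2780 and 2.21 to 3.97 CPM in untreated A2780cis. In the same order, COL1A1 was at 3.52 to 9.3 and 0.1 to 1.84 CPM, and DCN at 7.25 to 12.3 and 0.647 to 1.47 CPM. The mitochondrial share of counts rose with treatment at both times. At 6 h the medians were 6.25% untreated and 7.15% treated in A2780, and 5.98% and 7.58% in A2780cis. At 12 h they were 6.42% and 8.71% in A2780, and 5.13% and 9.35% in A2780cis. The part of this share in the results was not tested. CPM values below are counts relative to the library total after TMM scaling, and log2 FC are treated over untreated unless stated otherwise. A gene is called differentially expressed (DEG) where its Benjamini-Hochberg adjusted p over the 20240 genes was at most 0.05.

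5-FdU-ECyd up-regulated most of the 10 AP-1 genes in both lines, and none of the 10 was down-regulated. In A2780, 7 of the 10 were up-regulated at 6 h and 8 at 12 h, whereas 16% and 28.6% of all tested genes were up-regulated at these times. Of the 8 calls at 12 h, 7 were kept under every alternative fit. The call of JUN, which like BATF3 passed the filter only through A2780cis, was not. In A2780cis, 7 were up-regulated at 6 h and 9 at 12 h, against 14.4% and 31% of all genes. The median log2 FC of the 10 was 1.00 and 1.77 in A2780 and 1.26 and 2.42 in A2780cis at 6 h and 12 h, beside 0.04, 0.02, 0.00 and 0.04 over all genes. With JUN, which was at the floor of 3 counts in untreated A2780 at 12 h, set to its fold over that floor, the A2780 median at 12 h was 1.61. When only the library size was used for scaling, the all-gene medians became 0.10, 0.24, 0.10 and 0.15. The up-regulated share of all DEGs then was 63.7% in place of 54.5% for A2780 at 6 h, 70.7% in place of 52.3% for A2780 at 12 h, 61.4% in place of 47.0% for A2780cis at 6 h, and 58.8% in place of 51.7% for A2780cis at 12 h. BATF3 was the 1 gene not called in any of the 4 comparisons. Bulk counts cannot tell apart more transcript per cell from more cells with transcript. CPM are shares of a library, so they also cannot tell more of a transcript from less of the other RNA. The paper describes ECyd, after its release from the prodrug, as an inhibitor of RNA polymerase. The part of lost RNA in these results was not tested.

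**Figure D1:**
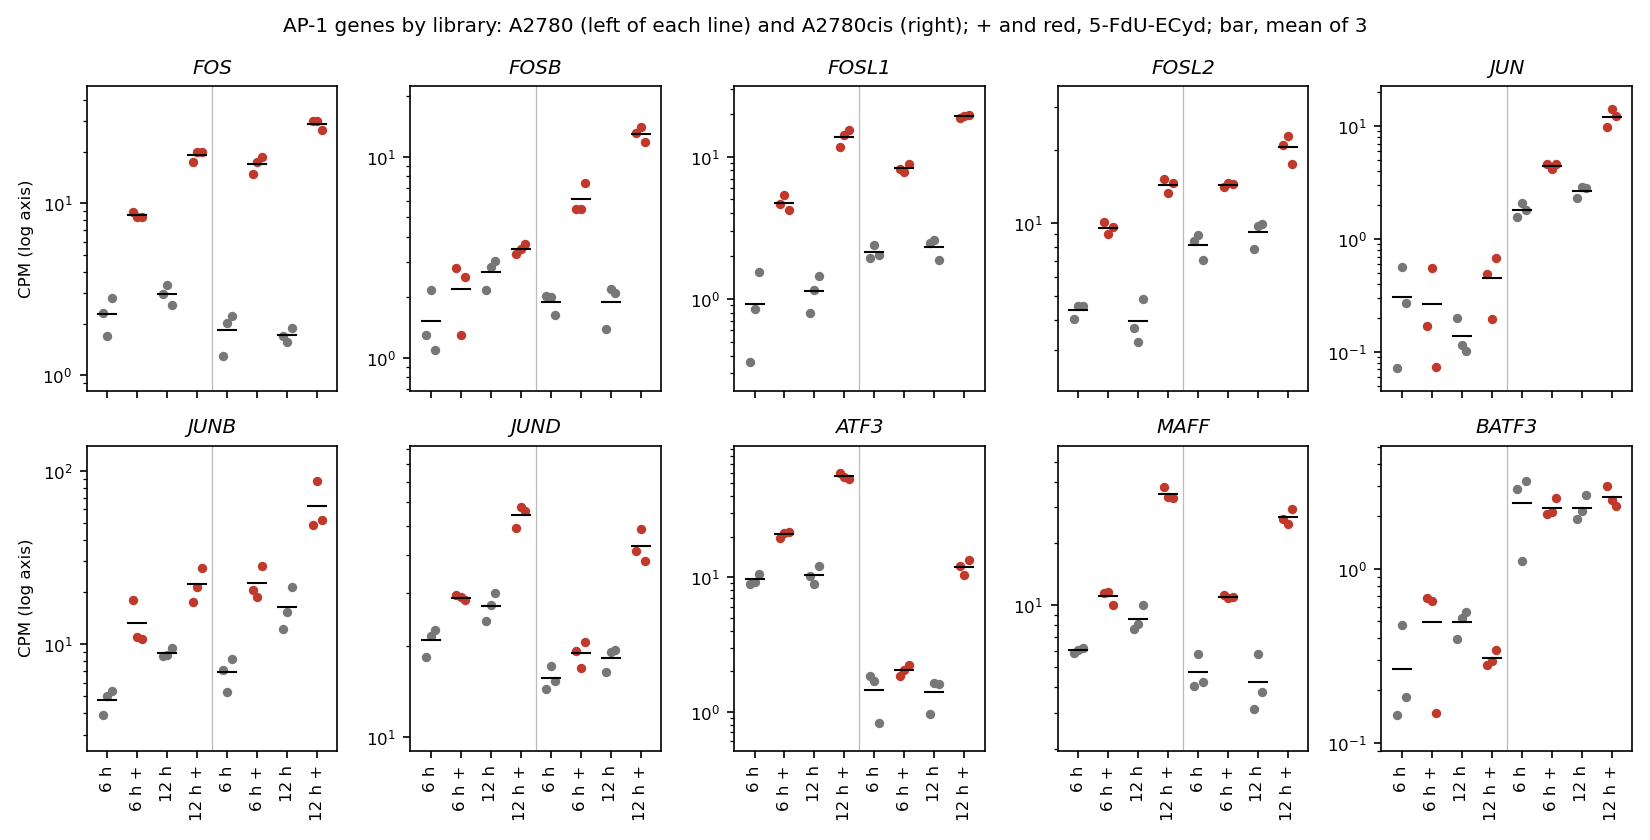
CPM (log axis) of the 10 AP-1 genes in each of the 24 libraries, with untreated libraries in grey, treated libraries in red and the mean of 3 as a bar. The A2780 groups stand left of the vertical line and the A2780cis groups right of it; FOS, FOSL1 and FOSL2 show treated libraries above untreated libraries in every line and time, whereas BATF3 differs mainly between lines.

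FOS was low but present in untreated cells of both lines and rose at every time point. The rise was larger at 12 h than at 6 h and larger in A2780cis than in A2780. In A2780, FOS was at 2.30, 1.70 and 2.82 CPM untreated and 8.95, 8.33 and 8.30 CPM treated at 6 h. At 12 h the A2780 libraries held 2.97, 3.36 and 2.57 CPM untreated and 17.5, 20.0 and 19.9 CPM treated. Treated and untreated libraries were clearly separated, with a log2 FC of 1.90 ± 0.17 (SE, adjusted p = 1.14e-08) at 6 h and 2.69 ± 0.15 (8.01e-14) at 12 h. In A2780cis, FOS was at 1.29, 2.01 and 2.21 CPM untreated and 14.8, 17.3 and 18.7 CPM treated at 6 h. At 12 h the values were 1.69, 1.57 and 1.89 CPM untreated and 30.0, 30.1 and 26.8 CPM treated. Here FOS rose by a log2 FC of 3.20 ± 0.17 (7.38e-13) and 4.07 ± 0.16 (1.62e-16), a 16.8-fold increase at 12 h. FOS, on chromosome 14 (75278826 to 75282230), ranked 164th of 20240 genes by log2 FC in A2780cis at 12 h.

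FOSB, the paralog of FOS, was up-regulated in A2780cis and not called in A2780. In A2780cis it was at 2.03, 2.01 and 1.64 CPM untreated and 5.50, 5.48 and 7.44 CPM treated at 6 h. At 12 h it was at 1.40, 2.19 and 2.11 CPM untreated and 13.1, 14.1 and 11.8 CPM treated. Treated libraries were above untreated libraries at both times, with a log2 FC of 1.72 ± 0.24 (5.47e-06) and 2.78 ± 0.21 (2.56e-11). In A2780, FOSB was at 1.29, 2.18 and 1.09 CPM untreated and 2.81, 1.30 and 2.52 CPM treated at 6 h, and these libraries overlapped. At 12 h A2780 held 2.18, 2.84 and 3.03 CPM untreated and 3.29, 3.47 and 3.69 CPM treated. The A2780 log2 FC of FOSB were 0.57 ± 0.28 (adjusted p = 0.135, 95% interval -0.01 to 1.16) and 0.37 ± 0.22 (0.155, -0.08 to 0.82). At 6 h it was called without A2780 untreated replicate 2 or treated replicate 2, at a log2 FC of up to 0.89. At 12 h it was called under scaling by library size alone, with a log2 FC of 0.60 (adjusted p = 0.033).

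FOSL1, which encodes FRA-1, a FOS protein without the transactivation domain of FOS, had the largest log2 FC among the 10 genes in A2780. It rose there from 0.36, 0.85 and 1.55 CPM to 4.61, 5.37 and 4.22 CPM at 6 h, with a log2 FC of 2.41 ± 0.28 (4.00e-07). At 12 h it rose from 0.79, 1.16 and 1.44 CPM to 11.6, 14.1 and 15.4 CPM, with a log2 FC of 3.57 ± 0.22 (6.24e-13). In A2780cis, FOSL1 started higher, between 1.89 and 2.58 CPM in the 6 untreated libraries. It reached 7.74 to 8.86 CPM in treated libraries at 6 h and 18.7 to 19.6 CPM at 12 h, log2 FC of 1.96 ± 0.22 (2.79e-07) and 3.05 ± 0.19 (1.07e-12). FOSL2, which encodes the related FRA-2, rose less. In A2780 it stood between 4.02 and 4.55 CPM untreated and between 8.98 and 10.1 CPM treated at 6 h, and between 3.24 and 4.88 CPM untreated and 13.3 and 15.2 CPM treated at 12 h. In A2780cis it stood between 7.03 and 8.92 CPM untreated and 14.0 and 14.6 CPM treated at 6 h, and between 7.85 and 9.88 CPM untreated and 17.5 and 23.0 CPM treated at 12 h. Its log2 FC were 1.14 ± 0.16 (6.31e-06) and 1.85 ± 0.14 (6.52e-11) in A2780 and 0.83 ± 0.14 (7.51e-05) and 1.16 ± 0.13 (2.84e-08) in A2780cis. No treated FOSL1 or FOSL2 library overlapped an untreated library of its line and time.

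JUN, the gene of c-Jun, was close to silent in A2780 and low but present in untreated A2780cis, at 1.57 to 2.92 CPM. In A2780 the counts were 1, 6 and 3 untreated and 2, 6 and 1 treated at 6 h, and 3, 2 and 2 untreated and 7, 4 and 14 treated at 12 h. At 6 h the log2 FC of -0.17 ± 0.69 (adjusted p = 0.878) was not called, and its interval from -1.59 to 1.25 is wide. At 12 h the libraries overlapped in CPM, with 0.195 CPM in the lowest treated and 0.198 CPM in the highest untreated library, and the pooled counts gave a ratio of 3.35 (exact 95% interval 1.41 to 9.17, counting error only). The fitted difference at 12 h was called (adjusted p = 0.0184) and was lost without A2780 untreated replicate 2 or 3 or treated replicate 3, with log2 FC as low as 1.19. In A2780cis, JUN rose from 1.57, 2.11 and 1.80 CPM to 4.62, 4.16 and 4.62 CPM at 6 h. At 12 h it rose from 2.31, 2.92 and 2.81 CPM to 9.78, 14.2 and 12.2 CPM. The A2780cis libraries did not overlap, and log2 FC were 1.29 ± 0.28 (0.000895) and 2.17 ± 0.23 (8.37e-09).

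JUNB, an immediate early partner of FOS proteins, rose in both lines at both times. In A2780 it went from 3.88, 5.01 and 5.37 CPM to 18.1, 10.9 and 10.7 CPM at 6 h, and from 8.51, 8.69 and 9.45 CPM to 17.5, 21.4 and 27.4 CPM at 12 h. In A2780cis it went from 7.12, 5.31 and 8.18 CPM to 20.4, 18.6 and 28.2 CPM at 6 h, and from 12.2, 15.3 and 21.4 CPM to 48.6, 87.4 and 52.0 CPM at 12 h. Libraries did not overlap although the treated replicates scattered widely, and 1 treated A2780cis library stood well above the other two at 12 h. The log2 FC were 1.49 ± 0.28 (0.000325) and 1.32 ± 0.24 (5.02e-05) in A2780 and 1.70 ± 0.26 (1.95e-05) and 1.95 ± 0.23 (6.15e-08) in A2780cis. JUNB shares 259 exon bases, 14.2% of its exon length, with HOOK2 on the opposite strand, and the strand setting of the counting is not given in the sources used here. HOOK2 also rose, with log2 FC of 0.63, 0.76, 1.06 and 0.99 in A2780 at 6 h and 12 h and A2780cis at 6 h and 12 h, and its part in the JUNB result was not tested.

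JUND, the most abundant JUN gene in A2780, had the smallest log2 FC of the called genes in that line. In A2780 it went from 18.4, 21.7 and 22.6 CPM to 29.4, 29.0 and 28.4 CPM at 6 h and from 24.2, 27.4 and 30.0 CPM to 49.2, 57.6 and 56.0 CPM at 12 h. These groups did not overlap, with log2 FC of 0.47 ± 0.12 (0.00475) and 1.00 ± 0.11 (6.18e-08). In A2780cis the 6 h libraries overlapped, with 14.4 to 17.2 CPM untreated and 16.9 to 20.7 CPM treated, and the log2 FC of 0.28 ± 0.13 was not called (adjusted p = 0.095), although it was under scaling by library size alone (0.38, 0.0493). At 12 h JUND rose in A2780cis from 16.4, 19.1 and 19.5 CPM to 41.2, 48.9 and 38.3 CPM, a log2 FC of 1.22 ± 0.12 (1.94e-09).

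ATF3, a stress-responsive factor induced by DNA damage and by the integrated stress response, showed a late rise in A2780cis from a much lower untreated level than in A2780. In A2780 it went from 8.97, 9.27 and 10.6 CPM to 19.6, 21.2 and 21.8 CPM at 6 h and from 10.2, 8.92 and 12.1 CPM to 59.8, 55.7 and 53.9 CPM at 12 h. Its log2 FC there were 1.12 ± 0.15 (4.12e-06) and 2.44 ± 0.14 (2.75e-13), and libraries were separated. In A2780cis at 6 h, 1.85, 1.70 and 0.82 CPM untreated stood beside 1.83, 2.04 and 2.21 CPM treated. These overlapped, and the log2 FC of 0.52 ± 0.26 (adjusted p = 0.134, 95% interval -0.01 to 1.05) was not called. At 12 h ATF3 rose in A2780cis from 0.96, 1.63 and 1.62 CPM to 12.1, 10.3 and 13.4 CPM, a log2 FC of 3.10 ± 0.19 (4.35e-13). The treated A2780cis libraries at 12 h overlapped the untreated A2780 libraries in level.

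MAFF rose with treatment in both lines at both times. In A2780 it went from 5.89, 6.06 and 6.18 CPM to 11.5, 11.7 and 10.0 CPM at 6 h and from 7.66, 8.11 and 10.0 CPM to 37.5, 33.8 and 33.3 CPM at 12 h. In A2780cis it went from 4.07, 5.82 and 4.25 CPM to 11.2, 10.9 and 10.9 CPM at 6 h and from 3.13, 5.78 and 3.78 CPM to 26.4, 24.7 and 29.4 CPM at 12 h. No libraries overlapped, and log2 FC were 0.87 ± 0.17 (0.000359) and 2.01 ± 0.15 (1.67e-11) in A2780 and 1.23 ± 0.17 (6.11e-06) and 2.67 ± 0.16 (2.97e-13) in A2780cis. MAFF shares 326 exon bases, 5.81% of its exon length, with PLA2G6 on the opposite strand, whose log2 FC were 0.11, 0.20, 0.76 and 0.31 in the same order, called in A2780cis at 6 h only. BATF3, a factor of the BATF group best known from dendritic cells, had 2 to 11 counts in A2780 and 11 to 54 in A2780cis. Its log2 FC were 0.88 ± 0.61 and -0.69 ± 0.48 in A2780 and -0.10 ± 0.28 and 0.21 ± 0.26 in A2780cis, none called.

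**Figure D2:**
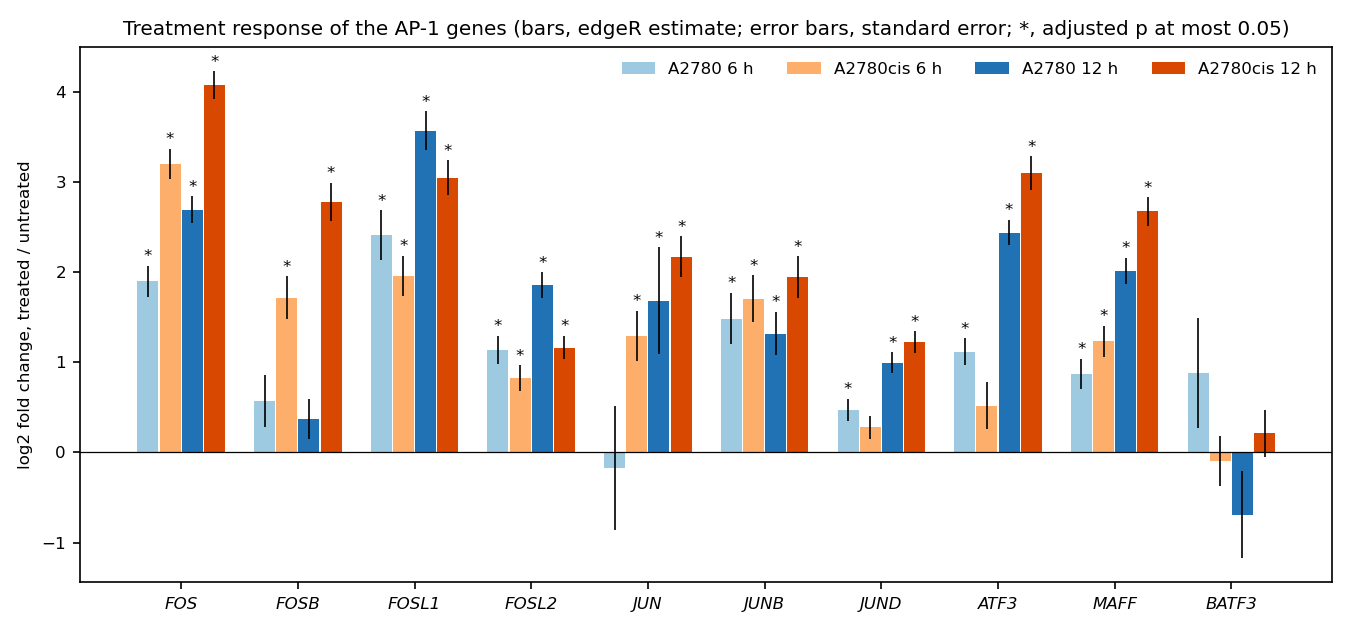
Log2 fold change of treated over untreated libraries for each AP-1 gene in the 4 comparisons, with the standard error and an asterisk where the adjusted p was at most 0.05. FOS reaches 4.07 and ATF3 3.10 in A2780cis at 12 h, FOSL1 reaches 3.57 in A2780 at 12 h, and BATF3 has no asterisk.

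Whether the response grew between 6 h and 12 h was tested as the difference of the log2 FC at 12 h and at 6 h. In A2780, 6 of the 10 genes differed, all with a larger log2 FC at 12 h, beside 23.7% of all genes in either direction. Among the called genes the difference was 1.32 ± 0.20 for ATF3 (adjusted p = 6.50e-05), 1.16 ± 0.39 for FOSL1 (0.0331) and 1.14 ± 0.22 for MAFF (0.000681). FOS (0.79), FOSL2 (0.71) and JUND (0.52) followed with adjusted p from 0.016 to 0.0241. These 3 calls were lost without the filter on low counts (0.0507, 0.0533 and 0.0642), and that of FOSL1 with the compared samples alone (0.0635). FOS was further lost without A2780 untreated 6 h or 12 h replicate 3 (adjusted p up to 0.0839), FOSL2 without A2780 untreated 12 h replicate 2 (0.066), and JUND without A2780 untreated 6 h replicate 2 or 3, untreated 12 h replicate 1 or treated 12 h replicate 2 (up to 0.0673). FOSL1 was lost without A2780 untreated 6 h replicate 2 or 3, treated 6 h replicate 1 or 3, untreated 12 h replicate 1 or 2, or treated 12 h replicate 3 (up to 0.421). In A2780cis, 6 genes differed as well, beside 24% of all genes. ATF3 led with 2.58 ± 0.34 (1.05e-05), before MAFF with 1.44 ± 0.24 (0.000115) and JUND with 0.95 ± 0.17 (0.000319). FOSL1 (1.09), FOSB (1.06) and FOS (0.87) had adjusted p of 0.0109, 0.0202 and 0.0128, of which FOSB was lost without A2780cis untreated 6 h or 12 h replicate 1 (up to 0.0609) and FOS without A2780cis untreated 6 h replicate 3 (0.109) or without the filter on low counts (0.0539). JUN (0.88, adjusted p = 0.0835) was called with the compared samples alone (0.0391). The JUNB response did not differ detectably between times, at -0.17 ± 0.37 (95% interval -0.94 to 0.60) in A2780 and 0.24 ± 0.35 (-0.47 to 0.96) in A2780cis.

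A difference of the response between the lines was tested as the log2 FC in A2780cis minus that in A2780. At 6 h only FOS differed, by 1.30 ± 0.26 (adjusted p = 0.00455), beside 3.07% of all genes. FOSB differed by 1.15 ± 0.38 (adjusted p = 0.104) and was not called. At 12 h, 5 of the 10 genes differed, beside 23.7% of all genes. FOSB led with 2.41 ± 0.31 (4.16e-06), FOS followed with 1.38 ± 0.22 (7.92e-05), and both responded more in A2780cis. FOSL2 responded less in A2780cis, by -0.69 ± 0.19 (0.0119), a call lost without A2780 untreated replicate 2 (adjusted p = 0.0517). MAFF (0.66 ± 0.21, 0.0251) and ATF3 (0.66 ± 0.24, 0.0457) passed narrowly, and both were lost under scaling by library size alone (0.0721 and 0.106). Without the filter on low counts ATF3 was lost as well (0.0744) and JUNB was called (0.60, 0.0232). MAFF was lost without A2780 untreated 12 h replicate 3, treated replicate 2 or 3, A2780cis untreated replicate 1 or 3, or treated replicate 3 (adjusted p up to 0.101). ATF3 was lost without A2780 untreated 12 h replicate 1 or 3, treated replicate 2 or 3, A2780cis untreated replicate 1, or treated replicate 1 or 3 (up to 0.214). For JUN, the difference at 12 h was 0.49 ± 0.81 with a 95% interval from -1.17 to 2.15, wide because of the few A2780 counts.

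**Figure D3:**
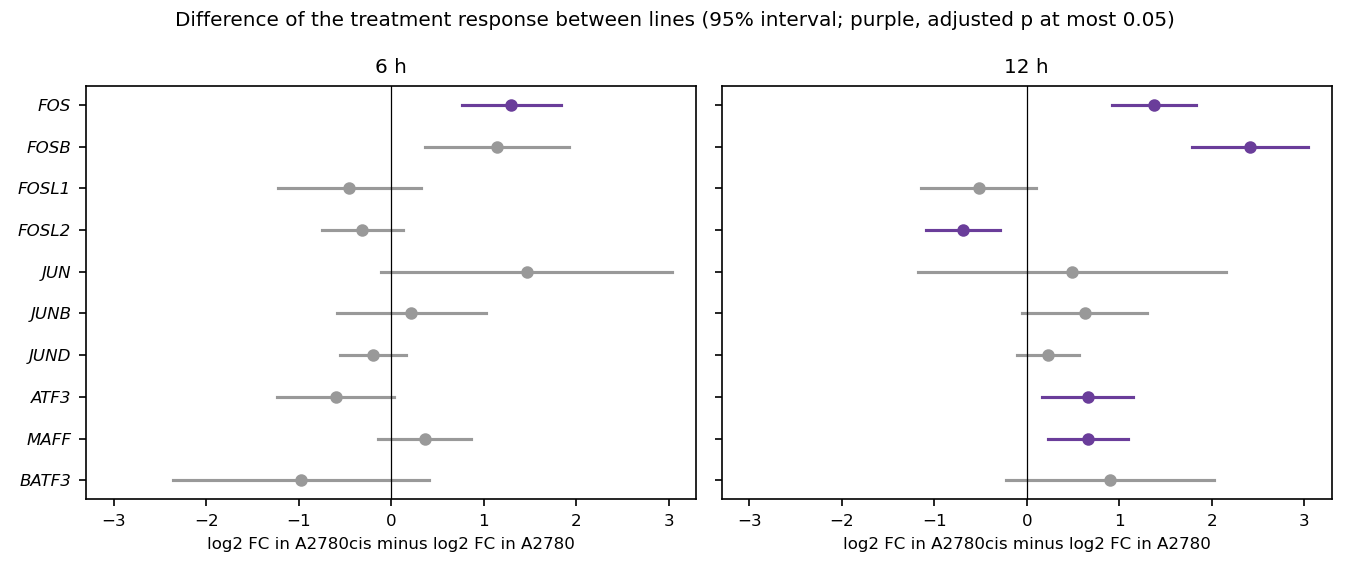
Log2 FC in A2780cis minus log2 FC in A2780 for each AP-1 gene at 6 h and at 12 h, with 95% intervals and called differences in purple. FOS lies above 0 at both times (1.30 and 1.38), FOSB at 2.41 at 12 h, FOSL2 at -0.69, and the JUN and BATF3 intervals are the widest.

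The untreated lines differed in some AP-1 genes at 6 h and in more of them at 12 h, as they did in many genes at large. JUN and BATF3, which passed the filter on low counts only through A2780cis, are given as a description and are not counted here. Of the other 8 genes, 2 were higher and 2 lower in A2780cis than in A2780 at 6 h. That share is near the 47.9% of all genes called in either direction. At 12 h, 3 were higher and 4 lower, beside 52.9% of all genes. The fitted log2 difference of JUN at 6 h was 2.65, its pooled counts at 12 h gave a ratio of 19.7 (exact 95% interval 9.35 to 49.9), and the differences of BATF3 were 3.21 and 2.14. ATF3 was lower, by -2.74 ± 0.22 (3.11e-11) and -2.90 ± 0.19 (4.79e-13), a 7.46-fold difference at 12 h. FOSL1 (1.26 and 1.00) and FOSL2 (0.89 and 1.21) were higher and JUND (-0.41 and -0.57) lower in A2780cis at both times. At 12 h alone JUNB was called higher (0.87), and FOS (-0.78) and MAFF (-1.04) lower. At 6 h JUNB was called without the filter on low counts (0.54, adjusted p = 0.0148) and MAFF under library size alone (-0.47, 0.0485), and at 12 h FOSB with the compared samples alone (-0.55, 0.0399). Libraries of the lines did not overlap in any of the genes called with all samples and the filter.

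Some AP-1 genes also differed between the times in cells without drug. In untreated A2780, FOSB (0.84), JUNB (0.92), JUND (0.38) and MAFF (0.51) were higher at 12 h than at 6 h, with adjusted p from 0.0204 to 0.0247, beside 26.9% of all genes called. All 4 calls were lost when A2780 untreated 6 h replicate 1 was left out, which left 0 of the 10 genes called (adjusted p up to 0.14), and all 4 also without A2780 untreated 12 h replicate 3 (up to 0.158). FOSB was further lost without untreated 6 h replicate 3 or 12 h replicate 2, JUND without 12 h replicate 2 and MAFF without 6 h replicate 2. In untreated A2780cis, JUNB alone was called (1.23 ± 0.26, adjusted p = 0.000801), beside 39.9% of all genes, and it was called whichever library was left out. JUN was called there with the compared samples alone (0.63, 0.039) and JUND under library size alone (0.40, 0.0349). The FOS log2 difference over time in untreated cells was 0.37 ± 0.19 (adjusted p = 0.144) in A2780 and -0.10 ± 0.21 (0.758) in A2780cis.

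To compare levels between genes, CPM were divided by exon length in kilobases. This length joins the exons of all annotated transcripts of a gene and can exceed that of the mRNA expressed. Close orderings between genes may therefore depend on it. In untreated A2780, JUND contributed most, with 56.5% of the summed CPM per kb at 6 h and 54.5% at 12 h, before JUNB with 13.5% and 18.8%. The sum over the 10 genes was 19.2 CPM per kb untreated and 36.6 treated at 6 h, and 25.9 and 76.7 at 12 h. In treated A2780 at 12 h, JUND (28.1 ± 2.31 CPM per kb, SD, n = 3) was followed by ATF3 (14.1 ± 0.75) and JUNB (12.1 ± 2.72), of which ATF3 and JUNB were within their spread. In A2780cis the sum was 17.7 untreated and 39.4 treated at 6 h, and 24.5 and 93.0 at 12 h. JUND (9.50 ± 0.88) and JUNB (8.90 ± 2.55) were within their spread in untreated A2780cis at 12 h, and in treated A2780cis at 12 h JUNB had the highest mean (34.3 ± 11.8), before JUND (22.2 ± 2.85), FOSL1 (10.2 ± 0.24) and FOS (9.09 ± 0.59). The FOS family together held 2.56 ± 0.27 CPM per kb in untreated and 15.9 ± 1.38 in treated A2780 at 12 h, and 3.38 ± 0.22 and 24.5 ± 1.04 in A2780cis. JUN contributed 0.164% of the sum in treated A2780 and 3.58% in treated A2780cis at 12 h. In untreated A2780 at 6 h, FOS (0.71 ± 0.18) and FOSL1 (0.49 ± 0.32) were within their spread.

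**Figure D4:**
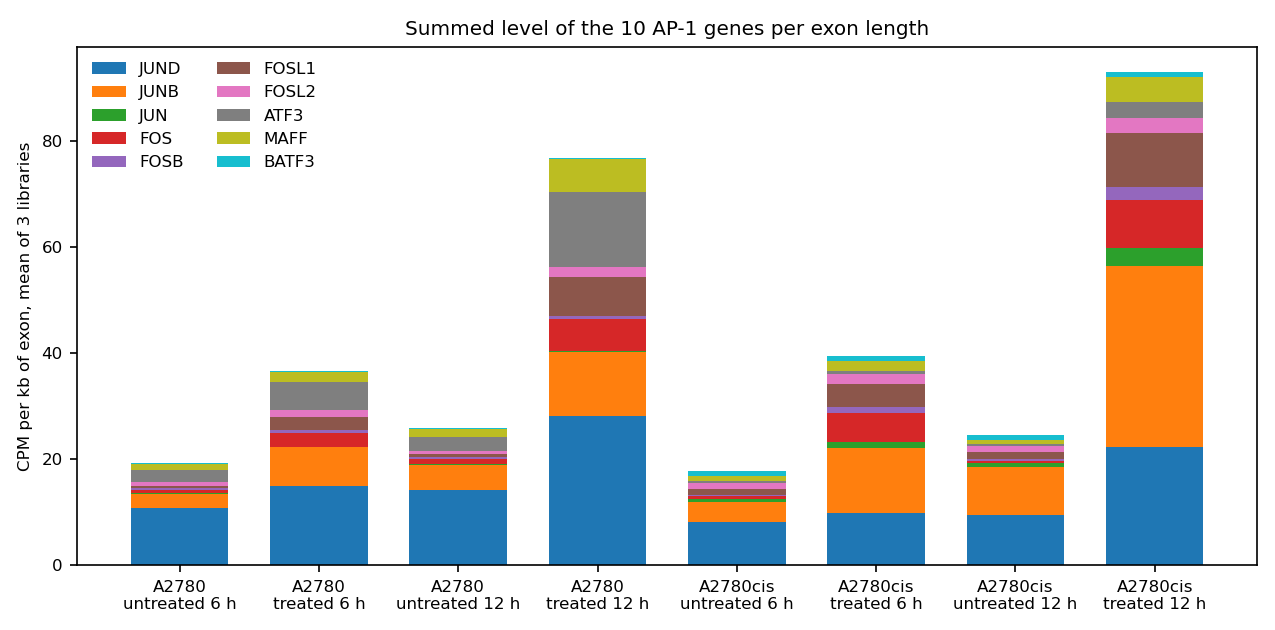
Mean CPM per kb of exon of the 10 AP-1 genes, stacked by gene for each of the 8 groups (n = 3 libraries each). The summed level at 12 h is 25.9 untreated and 76.7 treated in A2780, and 24.5 and 93.0 in A2780cis, with JUND the largest block in A2780 and JUNB in treated A2780cis.

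Genes related to AP-1 were taken from 4 lists written from general knowledge. At 12 h, 28.6% of all tested genes rose and 26.1% fell in A2780, and 31% rose and 28.9% fell in A2780cis, which is the background for the counts of each list. Of 11 other AP-1 and MAF genes, 8 were tested. At 12 h, 3 rose and 1 fell in A2780, and 3 rose and 2 fell in A2780cis, with medians of -0.12 and 0.31. ATF2, an AP-1 partner activated by stress kinases, fell by 0.66 ± 0.11 (adjusted p = 1.03e-05) and 0.97 ± 0.11 (3.01e-08) on the log2 scale. MAFG, another small MAF gene, rose by 0.40 ± 0.12 (0.00763) and 1.04 ± 0.13 (1.13e-07). MAFA, a large MAF factor known from pancreatic beta cells, had 1, 7 and 5 counts untreated and 25, 36 and 32 treated in A2780 at 12 h, a ratio of 6.71 (exact 95% interval 3.74 to 13.1). In A2780cis at 12 h it had 52, 66 and 79 counts untreated and 71, 103 and 78 treated, a log2 FC of 0.55 (adjusted p = 0.0252), and the response differed between the lines by -2.16 (0.00101).

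All 21 kinases and factors upstream of AP-1 were tested. At 12 h, 2 rose and 5 fell in A2780, and 1 rose and 14 fell in A2780cis, with list medians of -0.15 and -0.41. The share that fell was 23.8% in A2780, near the 26.1% of all genes, and 66.7% in A2780cis. MAP2K1, which encodes the kinase MEK1, fell by 0.72 ± 0.09 (2.36e-07) in A2780 and by 0.84 ± 0.09 (1.53e-08) in A2780cis. MAP3K5, the stress kinase ASK1, fell in A2780cis by 1.81 ± 0.16 (4.54e-10) and had a log2 FC of -0.04 ± 0.21 (adjusted p = 0.876) in A2780, a difference between lines of -1.77 (3.49e-05).

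Of 22 known AP-1 target genes, 17 were tested. At 12 h, 7 rose and 7 fell in A2780 and 6 rose and 4 fell in A2780cis, with medians of -0.03 and -0.05. LIF, a cytokine of the interleukin 6 family, rose by a log2 FC of 2.68 ± 0.13 (6.67e-15) and 3.28 ± 0.14 (6.74e-16). PLAU, the urokinase, rose by 1.97 ± 0.12 (9.30e-13) and 2.52 ± 0.18 (9.34e-12).

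Of 8 factors acting on mRNAs with AU-rich elements, such as those of FOS and JUN, 8 were tested. At 12 h, 2 rose and 5 fell in A2780 and 1 rose and 7 fell in A2780cis, with medians of -0.58 and -1.02. CNOT1, the scaffold of the deadenylase complex, fell by 1.50 ± 0.11 (1.57e-11) and 1.72 ± 0.11 (1.20e-12). ELAVL1, which encodes the stabilising protein HuR, fell by 0.58 ± 0.12 (0.000201) and 1.39 ± 0.12 (4.89e-10), and HNRNPD (AUF1) by 0.63 ± 0.11 (1.62e-05) and 1.04 ± 0.11 (6.76e-09). The 1 gene of this list that rose in both lines, ZFP36, encodes the decay factor tristetraprolin and was named after its values were seen, with log2 FC of 1.18 and 1.36.

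**Figure D5:**
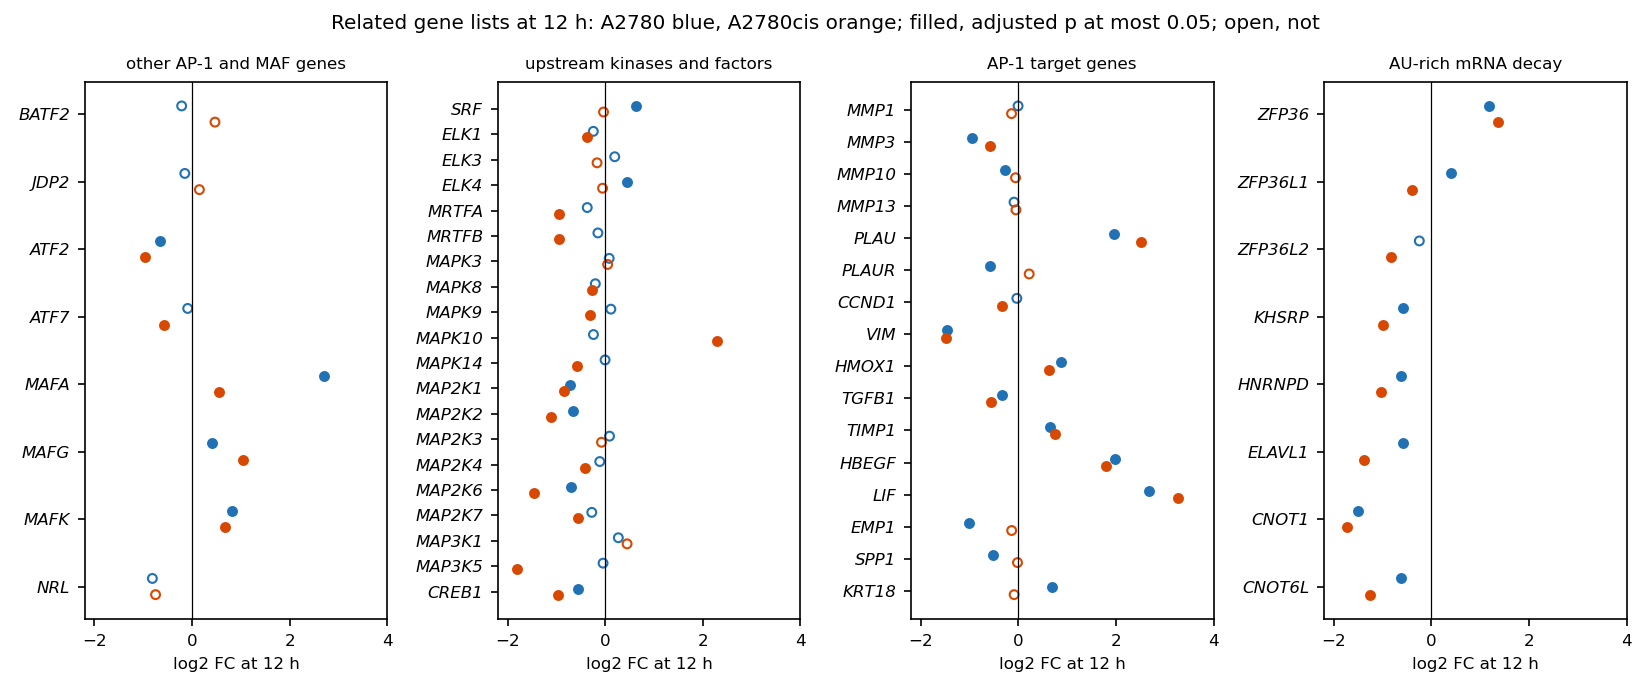
Log2 FC at 12 h in A2780 (blue) and A2780cis (orange) of the tested genes of the 4 lists, a pair of genes that are not reported here left out, filled where the adjusted p was at most 0.05. Most genes of the upstream list and of the AU-rich list lie below 0. In A2780cis 14 of 21 and 7 of 8 tested genes were called lower, beside 28.9% of all genes. In A2780 these were 5 of 21 and 5 of 8, beside 26.1% of all genes. AP-1 target genes lie on both sides, with LIF at 2.68 and 3.28.

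The genes whose group means of log2 CPM over the 8 groups followed FOS most closely, among 12511 genes whose average log2 CPM reached 2, were PHYHD1 (Pearson r = 0.984), LCA5 (0.982), ALOX12-AS1 (0.978), ZKSCAN1 (0.975) and TNFRSF10B (0.974). Of these, TNFRSF10B encodes a death receptor for TRAIL. At 12 h its mean level was 176 CPM untreated and 309 CPM treated in A2780, and 166 and 302 CPM in A2780cis, a narrower range than that of FOS. Among the AP-1 genes, FOSL1 (0.919) and MAFF (0.913) followed FOS most closely, then FOSB (0.842), JUNB (0.825), FOSL2 (0.80) and JUND (0.724), and ATF3 (0.517), JUN (0.374) and BATF3 (0.0784) followed it least. These correlations describe 8 points that share libraries and are given without a test.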

How the data were processed

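Total RNA libraries (TruSeq Stranded kit) of A2780 and A2780cis cells were analysed from the count table that the authors deposited, 24 libraries in 8 groups by line, treatment and time. Per the study's supplement, the authors trimmed reads with Trimmomatic, aligned them with STAR (version 2.5.2b in the submitters' processing notes) to GRCh38.p7 and counted exons per gene with featureCounts, allowing reads over several genes and giving fractions to reads with several alignments. The deposited values are therefore expected counts without normalization, of which 9.50% to 12.8% per library are not whole, and fractions spread the reads of near-identical paralogs. The reads are single per the labels but paired-end per the paper, and the strand setting is not given in the sources used here. All columns were used.

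Identifiers were matched to GENCODE release 44 (56948 of 63299). Counts were rounded, filtered (filterByExpr, minimum count 10, total 15), TMM-scaled and fitted with edgeR 4.0.16 (R 4.3.3), quasi-likelihood F test, 1 coefficient per group, 16 residual degrees of freedom, two-sided, Benjamini-Hochberg adjusted over 20240 genes. SE were derived from the F statistic. Tables and plots were made with Python 3.11.15. Pooled ratios carry exact binomial 95% intervals, and a floor of 3 counts was used. Intervals on counts cover counting error only. No 2 replicates agreed within sampling noise (chi-square per degree of freedom at least 2.21). The fit was tested on simulated data with known fold changes. Totals of 11077368 to 21901406 leave genes such as JUN in A2780 at a few counts.

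Named genes were the 10 AP-1 genes, from each list up to 3 genes past the threshold at 12 h with the smallest p, and the 5 genes most like FOS. A few genes that this rule names are not reported here, though the counts over their lists include them. The genes and lists were chosen with earlier results of these data known. Alternatives were DESeq2 size factors, library size alone, no filter, unrounded counts, the replicate number as a block, the compared samples alone, the DESeq2 1.42.0 Wald test, each library left out and, chosen after seeing the data, leaving out lncRNA and rRNA genes, a wider class than the lincRNA and rRNA genes whose removal the supplement describes. Promoter sequences are from RefSeq.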

Additional observations from a re-analysis of the deposited data

Results flagged for a closer look

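Differences of the treatment response between the lines were flagged where the test of the difference passed. FOS responded more in A2780cis, by a log2 difference of 1.30 at 6 h and 1.38 at 12 h. FOSB (2.41), ATF3 (0.659) and MAFF (0.661) responded more in A2780cis at 12 h, and FOSL2 less (-0.688). The calls of ATF3, MAFF and FOSL2 were lost under some alternatives, as given above.

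Differences of the response between 12 h and 6 h were flagged in the same way. In A2780 the log2 differences were 0.794 for FOS, 1.16 for FOSL1, 0.714 for FOSL2, 0.524 for JUND, 1.32 for ATF3 and 1.14 for MAFF. In A2780cis they were 0.872 for FOS, 1.06 for FOSB, 1.09 for FOSL1, 0.946 for JUND, 2.58 for ATF3 and 1.44 for MAFF. Every one was positive, that is, larger at 12 h. The calls of FOS, FOSL1, FOSL2 and JUND in A2780 and of FOS and FOSB in A2780cis were lost under some alternatives, as given above. With 3 libraries per group no single library was tested for standing apart.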

How the results depend on the processing

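Of the 31 AP-1 calls for treatment against no treatment, 30 were kept under every alternative that tested the gene, and JUN in A2780 at 12 h was lost; the fit of A2780 alone did not test JUN or BATF3. Over all 12 comparisons, alternatives other than leaving out single libraries left 926 values with their direction and side of the threshold. Under these alternatives, 9 values gained and 8 lost a call and 8 changed sign. With each library left out in turn, 887 values kept both, 7 gained and 46 lost a call and 20 changed sign. The number of AP-1 genes called changed to 3 for the line difference at 12 h under library size alone, to 3 for the time difference in A2780 without the filter, and to 2 for untreated A2780cis at 12 h against 6 h under library size alone and with the compared samples alone. The replicate numbers did not pair the libraries: correlations of deviations between same-numbered libraries ran from -0.655 to 0.612. With the replicate block, 6281 genes were called in A2780 at 6 h (5950 without it) and 7 of the AP-1 genes, as without it. The block turned the near-zero FOSB difference of untreated A2780cis between times to -0.001172.

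Apart from fits with single libraries left out, the other sign changes concerned uncalled values near 0. Under library size alone, BATF3 in A2780cis at 6 h was 0.008781, and in untreated A2780cis, 12 h against 6 h, FOS was 0.06802, ATF3 0.13, MAFF 0.01622 and BATF3 0.05302. There, ATF3 was 0.01133 without the filter and 0.03897 with the compared samples alone.

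With single libraries left out, genes called ranged from 3805 to 5987 for A2780 at 6 h, from 357 to 642 for the line difference at 6 h, from 1846 to 5697 for untreated A2780 and from 4985 to 8421 for untreated A2780cis, 12 h against 6 h. AP-1 genes called ranged from 3 to 5 for the line difference at 12 h, from 3 to 7 for the time difference in A2780 and from 0 to 4 for untreated A2780 between times. Log2 values that changed sign ranged from -1.20 to 0.61 (JUN, A2780 6 h), -0.42 to 0.18 (BATF3, A2780cis 6 h), -0.35 to 0.12 and -0.07784 to 0.48 (JUNB time difference, A2780 and A2780cis), -0.06697 to 0.99 and -0.01256 to 0.21 (FOSL1 and ATF3, untreated A2780 between times). In untreated A2780cis between times the ranges were -0.30 to 0.06803 (FOS), -0.11 to 0.19 (FOSB), -0.35 to 0.18 (ATF3), -0.44 to 0.02706 (MAFF) and -0.44 to 0.15 (BATF3). The causes were not tested. Depth limits JUN and BATF3 in A2780, at 1 to 14 and 2 to 11 counts.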
